A study of Mus musculus with 8 samples.

Results

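Translation initiation factors were read on a 2-colour mouse array by every non-control probe whose gene name starts with Eif1, Eif2, Eif3, Eif4, Eif5 or Eif6. This rule took 58 of the array's 30175 names, read by 92 of its 39429 probes; 34 had 1 probe and 24 had 2 or more. RNA came from the striatum of 8 adult males of strain C57Bl/6j, backcrossed for 7 generations: 4 wildtype mice and 4 with a gene-trap vector in 1 copy of Brd2 (Brd2+/-). Brd2 encodes a chromatin reader of the bromodomain family that takes part in transcription. Every mouse of both groups was born to heterozygous parents, no group received a treatment, and the labels give no age beyond adult. The trap is carried in the germ line, so all cells of the body carry it. Where in the gene it sits is not given in these sources.

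Each of the 4 arrays held 2 mice of 1 genotype, replicates 1 and 3 labelled with Cy3 and replicates 2 and 4 with Cy5. Genotype can therefore be compared only between arrays, 2 against 2, all on 1 slide, and values of the same array correlated at 0.986 to 0.989 against 0.925 to 0.959 between arrays. The wildtype arrays had positions 4 and 3 on the slide and the heterozygous arrays 2 and 1, so position cannot be told apart from genotype. Between 16398 and 24867 probes a sample were well above background, and 73 to 87 of the 92 initiation factor probes were. The targeted gene was read by a pair of probes. The Brd2 probe A_55_P1953545 read 7.39, 7.31, 6.90 and 6.90 in wildtype replicates 1 to 4 and 7.75, 8.07, 8.04 and 8.16 in the mice labelled heterozygous, on the log2 intensity scale. The other, A_55_P1958678, read 10.78 to 12.02 in wildtype and 11.68 to 11.83 in heterozygous mice. Neither was lower in the mice labelled heterozygous, except that the second was at -0.51 with the scanner's processed signals, whose median over all probes was -0.53, and at -0.10 with a smooth spatial trend removed from each array. Without the trap's position neither checks the labels, so every direction given here rests on the labels as deposited. The tissue label reads prefrontal cortex striatum, and another label field names the left atrium of the heart. Of the markers, all 10 striatal neuron markers were well above background in 8 of 8 samples, while of 8 atrial muscle markers 1 was. Of the other atrial markers, Nppa and Tnnt2 were in 7 of 8 samples, Tnni3 and Sln in 2, Myh6 in 1, and Myl7 and Actc1 in none. Of 8 cortical neuron markers, 5 were well above background in 8 of 8 samples and 0 were in none. How much cortex the tissue held was not tested.

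Protein synthesis starts when a small ribosomal subunit, loaded with the initiator tRNA, is brought to a messenger RNA and finds its start codon. eIF2 carries the initiator tRNA and is recharged by eIF2B, eIF3 holds the small subunit and the other factors together, and eIF4F recognises the cap of the message. eIF1, eIF1A and eIF5 check the start codon, and eIF5B then joins the large subunit. Phosphorylation of eIF2 by stress kinases, and capture of eIF4E by its binding proteins, are the main brakes on these steps, and both have been studied in neurons as gates of the protein synthesis that long-lasting synaptic change needs.

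Of the 92 probes, 79 were well above background in at least 4 of 8 samples and 13 were not. Of the 79, 19 had an outlier-flagged spot in at least 1 sample, which left 60 probes of 44 genes with a value in all 8 samples for the test, 55 of them well above background in 8 of 8. None of the 60 passed an adjusted p of 0.05 (limma, Benjamini-Hochberg over 18399 probes), and 0% of all probes tested did. At an unadjusted p under 0.05 there were 7 initiation factor probes, 11.7% of the 60, against 8.05% of all probes. Of these, 6 were higher in heterozygous mice (3.83% of all probes were) and 1 was lower (4.22% of all probes). The 2 genotypes did not overlap at 10 of the 60 probes, 16.7% against 17.0% of all probes, with heterozygous mice higher at 6 (7.86% of all probes) and lower at 4 (9.10%).

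The fitted log2 difference, heterozygous minus wildtype, was above 0 at 28 probes and below 0 at 32, and 47.6% of all probes were above 0. The median difference was -0.04, beside -0.02 over all probes tested. At 10 probes the genotypes were at least 1.5-fold apart, a size reached by 16.2% of all probes. Of all probes with an unadjusted p under 0.05, 47.5% were higher in heterozygous mice, but with the scanner's processed signals only 0.410% were, 9 of 2194. That setting put the median over all probes at -0.53 and over the 60 probes at -0.47, and 23 of the 60 changed sign. Relative to that setting's median over all probes, 12 of the 60 had another sign than in the main setting, 3 of which were among the 23. Processed-signal values of single probes given below are not set against that median unless stated, so a value slightly below 0 can lie above it. The plot of differences by role shows where those probes lie.

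**Figure D1:**
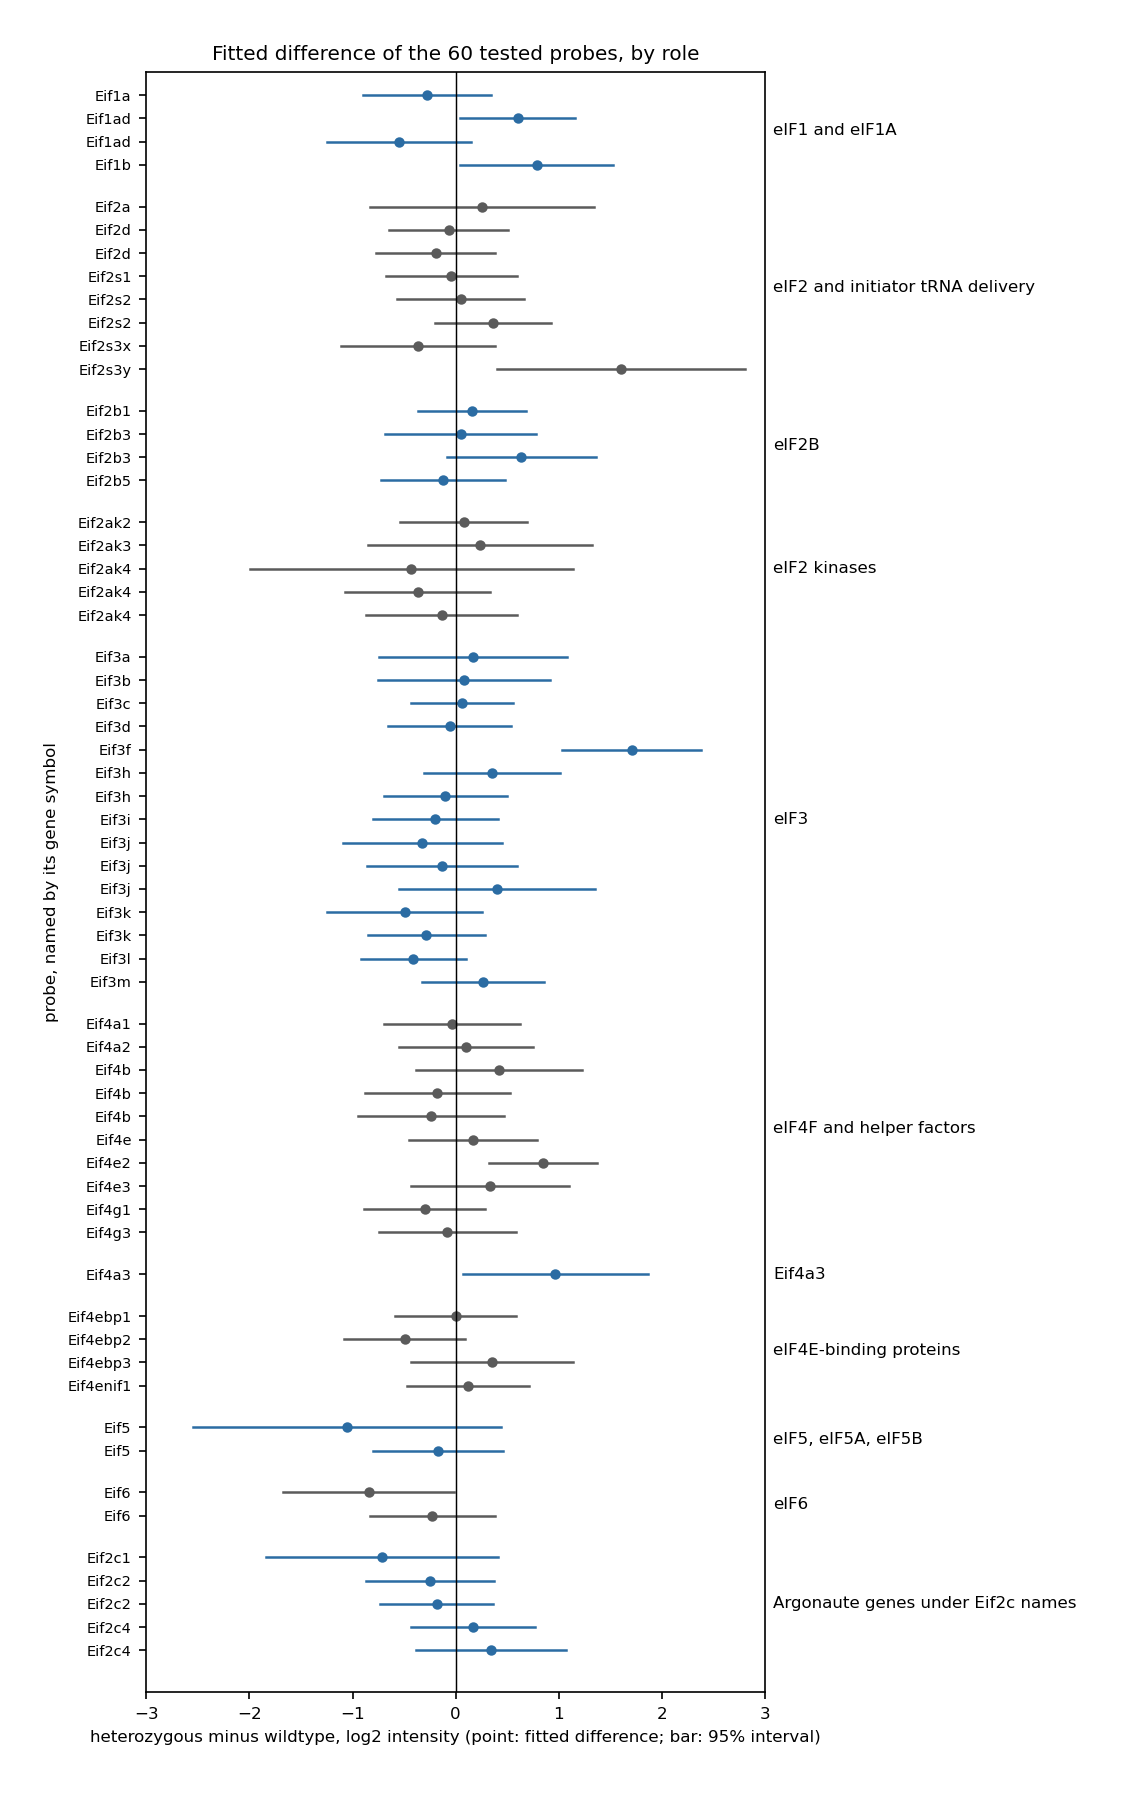
Fitted log2 difference (heterozygous minus wildtype, 4 mice each) of the 60 tested probes, grouped by the factor's role; points are fitted differences and bars their 95% intervals. The Eif3f interval, 1.04 to 2.38, lies farthest from 0, while 53 of the 60 bars cross 0. With the scanner's processed signals 23 of the 60 points change side, and 3 of those also do relative to that setting's median over all probes, -0.53.

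eIF3 is the largest of the initiation factors. Its core is an octamer that includes Eif3a and Eif3c and the paired MPN-domain subunits Eif3f and Eif3h, while Eif3b, Eif3g and Eif3i sit on a mobile arm and Eif3j is loosely bound. Eif3f is also known as a docking site for mTOR and S6 kinase and for its part in muscle growth. The array read eIF3 with 20 probes for 13 symbols, and Eif3f with 1 probe only. The 60-base probes of Eif3f, of its partner subunit Eif3h and of 2 other subunits are printed here because the eIF3 comparison rests on what each oligo binds; they are given 5′ to 3′ with no base set apart.
Eif3f: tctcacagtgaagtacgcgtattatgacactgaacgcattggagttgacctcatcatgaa
Eif3h: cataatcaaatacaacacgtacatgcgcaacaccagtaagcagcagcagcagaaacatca
Eif3i: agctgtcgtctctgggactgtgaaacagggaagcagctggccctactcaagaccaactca
Eif3k: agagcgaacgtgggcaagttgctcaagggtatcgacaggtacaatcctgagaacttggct

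The Eif3f probe (A_51_P516452) lies at chr7:116083752-116084173 on the plus strand of mm9, the build of the array's design file. Its 60 bases cover 422 bases of the genome, so it crosses at least 1 intron and reads spliced message. Its GC content was 43.3%, the median of the 92 probes. The Eif3h probe (A_55_P1979620, chr15:51621540-51621599, minus strand) lies within 1 exon. The Eif3i probe (A_51_P519189, chr4:129272626-129274145, minus strand) and the Eif3k probe (A_51_P341025, chr7:29765540-29766730, minus strand) cross introns as well, as did 9 of the 92 probes.

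Eif3f read 11.38, 11.79, 11.09 and 11.05 in wildtype replicates 1 to 4 and 12.96, 13.13, 12.86 and 13.19 in heterozygous replicates 1 to 4. All 4 heterozygous mice were above all 4 wildtype mice, and both heterozygous arrays gave nearly the same level while the wildtype arrays lay further apart. The raw spot signals behind these values, before any normalization, were 3410.1, 3654.3, 1859.7 and 1885 intensity units in wildtype and 9682, 12054, 4876 and 8321 in heterozygous mice. No spot was flagged and each was well above a background of 18 to 38. The fitted difference was 1.71 ± 0.30 (SE, 4 mice each), a 3.27-fold higher level in heterozygous mice with a 95% interval of 2.05 to 5.20.

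That difference did not pass the test over all probes, with an adjusted p of 0.437 in limma, which was also the lowest adjusted p of any probe on the array. In order of unadjusted p, Eif3f stood at place 11 of 18399. The gap between the array means was 0.52 within wildtype and 0.02 within heterozygous mice, both smaller than the difference between genotypes. The difference was above 0 under 30 of 30 alternative settings, from 0.69 with the scanner's processed signals, where the median over all probes was -0.53, to 1.97 without the array of wildtype replicates 1 and 2. It passed only when the 2 mice of an array were fitted as independent, with an adjusted p of 0.020. The adjusted p lay between 0.020 and 0.863 over the alternatives. Each array has a single Eif3f spot, at the same position on all 4, so no second probe or spot bears on this value.

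The 14 other tested eIF3 probes had differences from -0.50 to 0.40, with a median of -0.08. None had an unadjusted p under 0.05, against 8.05% of all probes. The genotypes did not overlap at 2 of them, 14.3% against 17.0% of all probes. Both were lower in heterozygous mice, as 9.10% of all probes were without overlap. Relative to each probe's own mean, Eif3f stood below the median of the other eIF3 probes by 0.89, 0.44, 1.14 and 1.04 in wildtype replicates 1 to 4 and above it by 0.70, 0.95, 0.80 and 1.11 in heterozygous replicates 1 to 4. The means of that distance were -0.88 ± 0.31 and 0.89 ± 0.18 (SD, n = 4 each), a difference of 1.77, while the other eIF3 probes' own median moved by -0.06. This contrast was proposed with the high rank of Eif3f known, so it is given as a description without a test.

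**Figure D2:**
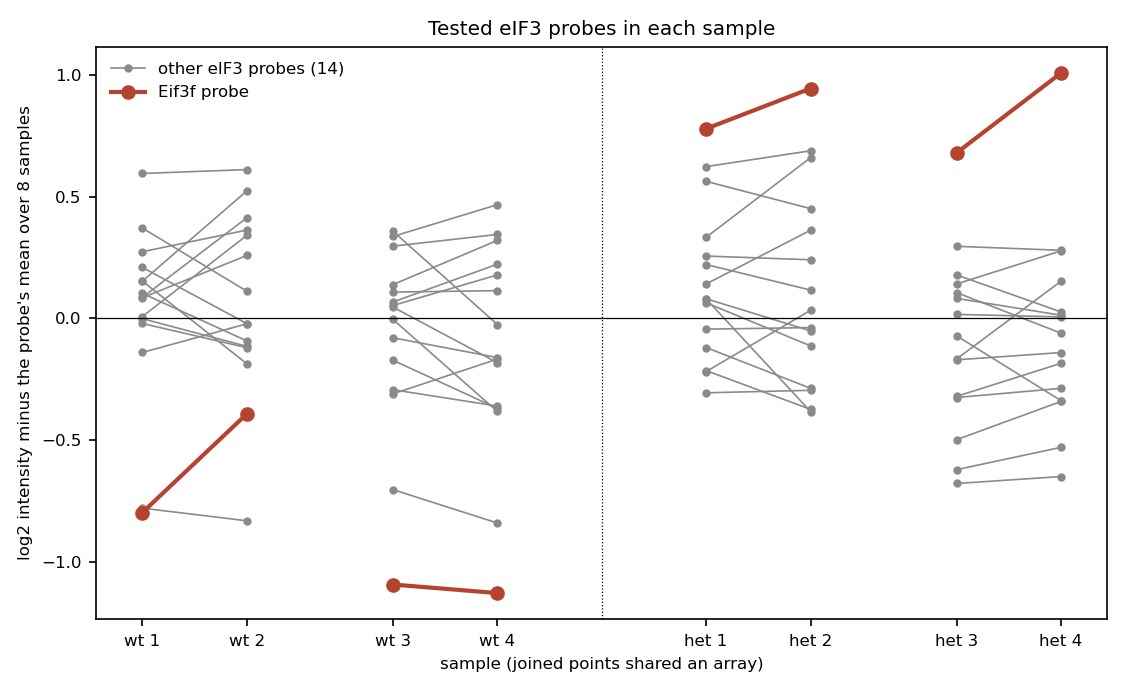
Log2 intensity of the 15 tested eIF3 probes in each mouse, relative to the probe's own mean over 8 samples; joined points are mice that shared an array. The Eif3f probe lies between -1.13 and -0.39 in wildtype and between 0.68 and 1.01 in heterozygous mice, while the other 14 probes spread on both sides of 0 in every sample.

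The probes that did not overlap within the rest of eIF3 belonged to Eif3l and Eif3k, which bind each other at the edge of the complex. Eif3l read 13.48, 13.23, 13.47 and 13.09 in wildtype and 12.99, 12.83, 13.04 and 12.77 in heterozygous mice. The gap was small and its interval reached 0, with a difference of -0.41 ± 0.22 and an adjusted p of 0.722. With the spatial trend removed it was -0.03. Eif3k, read by A_55_P2016387, had 14.50, 14.67, 14.52 and 14.53 in wildtype and 14.20, 14.04, 14.43 and 14.42 in heterozygous mice. Its difference of -0.28 ± 0.25 became 0.12 with the spatial trend removed. A second Eif3k probe, A_51_P341025, had -0.50 ± 0.33 and overlapped. Another, A_55_P2016388, had flagged spots in 4 of 8 samples and was not tested. It went the other way, with 0.45 ± 0.40 and overlapping groups when those spots were kept, and 1.30 when they were left out.

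The core subunits Eif3a and Eif3c, the arm subunit Eif3b, and Eif3d, which can itself bind a message's cap, had brightest-probe differences of 0.17, 0.06, 0.08 and -0.06. Eif3h, the MPN-domain partner of Eif3f, had a probe at 0.35 ± 0.29 and a second at -0.10 ± 0.26, and with processed signals both were below 0, the first at -0.01. Eif3i, a WD-repeat subunit of the arm, had -0.20 ± 0.27, and Eif3m, a core subunit, 0.26 ± 0.26, which was -0.13 with processed signals. Eif3j had 3 probes at -0.32, -0.13 and 0.40. Eif3e and Eif3g had outlier-flagged spots in their only probes. Kept in, those gave -0.29 ± 0.41 for Eif3e and -0.35 ± 0.28 for Eif3g, with adjusted p values of 0.922 and 0.812. A second probe of Eif3c, with flagged spots kept, had -0.31 ± 0.31 and overlapped. One of Eif3m, likewise kept, had 0.32 ± 0.25, with all heterozygous mice above all wildtype mice. Of all probes with flagged spots, 15.2% were higher without overlap.

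eIF1 and eIF1A open the small subunit for scanning and guard against wrong start codons. Eif1b, a close copy of Eif1, read 12.55, 12.22, 11.73 and 11.93 in wildtype and 12.80, 12.69, 12.99 and 13.07 in heterozygous mice. All heterozygous mice were above all wildtype mice, the nearest by 0.14. The difference was 0.78 ± 0.33 (adjusted p = 0.607) and 0.01 with processed signals, which is 0.54 above that setting's median over all probes. Eif1 itself, the factor that leaves the ribosome when the start codon is found, was read by probes that disagreed. Both had flagged spots and were left out of the test. With those spots kept, A_55_P2102471 read 13.55, 13.63, 14.03 and 13.93 in wildtype and 11.94, 12.04, 12.96 and 13.27 in heterozygous mice, a difference of -1.23 ± 0.39. The other, A_66_P126425, read 15.20, 14.94, 14.54 and 14.32 against 15.52, 15.52, 15.71 and 15.66, a difference of 0.85 ± 0.29. Each separated the genotypes, in opposite directions, with adjusted p values of 0.411 and 0.433. At the first probe the flagged spots were those of heterozygous replicates 1 and 2. At the other they were those of wildtype replicates 1 and 2 and heterozygous replicates 3 and 4. With flagged spots left out sample by sample, the differences were -0.67 and 1.09.

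The same split held for Eif1ad, an eIF1A-domain protein. Its probe A_52_P278154 read 8.05, 7.97, 8.40 and 8.14 in wildtype and 8.67, 8.42, 8.99 and 8.87 in heterozygous mice, a difference of 0.60 ± 0.25 (adjusted p = 0.605) that was -0.07 with processed signals. Its probe A_55_P2052081 read 12.53, 12.28, 12.40 and 12.70 against 11.78, 11.69, 12.12 and 12.12, a difference of -0.55 ± 0.31 (adjusted p = 0.733). Neither pair of groups overlapped. The probes lie at chr19:5371355-5371414 and chr19:5370188-5370247, about a kilobase apart on the same strand. The X-linked Eif1ax, with flagged spots kept, had 10.21, 9.85, 10.69 and 10.59 in wildtype and 11.28, 11.18, 11.27 and 11.35 in heterozygous mice, a difference of 0.93 ± 0.31 (adjusted p = 0.424). Its spot was flagged in 4 of 8 samples, 1 wildtype and 3 heterozygous. Eif1a had -0.28 ± 0.28 and overlapped. Eif1a and Eif1ax are near-identical copies, so their signals may be mixed.

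**Figure D3:**
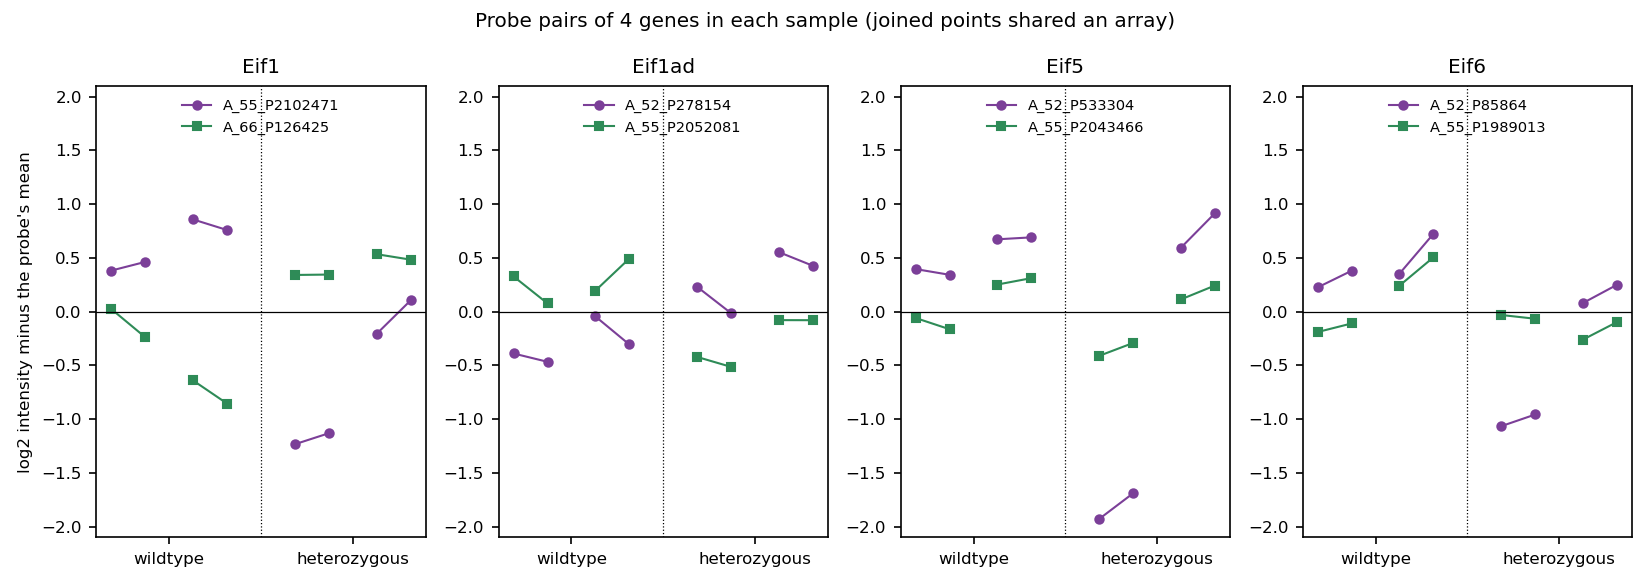
Log2 intensity of both probes of Eif1 (flagged spots kept) and of the tested probe pairs of Eif1ad, Eif5 and Eif6 in each mouse, relative to the probe's own mean; joined points shared an array. The Eif1 and Eif1ad pairs separate the genotypes in opposite directions, and heterozygous replicates 1 and 2, of 1 array, are low at both Eif5 probes, by unequal amounts, and at 1 of the Eif6 probes.

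eIF2 delivers the initiator tRNA. Its alpha subunit, Eif2s1, the one that the stress kinases phosphorylate, had a tested probe at -0.04 ± 0.28. Its beta subunit, Eif2s2, had 0.36 ± 0.25 at A_55_P2089655, where heterozygous mice (11.14, 11.15, 11.36 and 11.37) were all above wildtype mice (11.04, 10.88, 10.75 and 10.92). The difference turned to -1.07 with processed signals and to -0.06 with the spatial trend removed, and a second Eif2s2 probe gave 0.05 ± 0.27. Eif2a and Eif2d, other routes by which initiator tRNA can reach the ribosome, had 0.26 ± 0.48 and, for the Eif2d probe pair, -0.07 and -0.19.

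The gamma subunit of eIF2, which holds the tRNA, is encoded on both sex chromosomes. The Y copy, Eif2s3y, read 7.13, 7.38, 8.81 and 8.81 in wildtype and 9.95, 9.99, 9.55 and 9.05 in heterozygous mice. Its groups did not overlap, with wildtype replicates 1 and 2, of 1 array, far below all others. The difference was 1.60 ± 0.53 (adjusted p = 0.505). It was 0.82 without the array of wildtype replicates 1 and 2, 2.38 without that of wildtype replicates 3 and 4, and 0.55 with processed signals. Ddx3y, a Y-linked helicase looked at after these values were seen, read 9.81, 9.84, 9.99 and 10.16 in wildtype and 10.03, 10.19, 10.13 and 10.15 in heterozygous mice, a difference of 0.18 ± 0.23 that was -0.54 with processed signals. The X copy, Eif2s3x, had a tested probe at -0.37 ± 0.33. A second, with flagged spots kept, read 9.09, 9.18, 8.36 and 8.23 against 9.43, 9.45, 9.51 and 9.24, a difference of 0.70 ± 0.33. Both copies are nearly identical in sequence, so a probe may read some of each.

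eIF2B, the exchange factor that reloads eIF2 with GTP, had 4 tested probes, none with an unadjusted p under 0.05. The largest difference was that of Eif2b3, at 0.64 ± 0.32 for A_66_P127160, where wildtype (7.96 to 8.68) and heterozygous mice (8.63 to 9.29) overlapped. It was -0.29 with processed signals, and the other Eif2b3 probe gave 0.05 ± 0.32. Eif2b1 and the catalytic subunit Eif2b5 had 0.16 and -0.12. Eif2b4, with the flagged spots of 5 samples kept, had -0.87 ± 0.36 (adjusted p = 0.542) and overlapped.

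The 4 eIF2 kinases answer to different stresses. Eif2ak1 (HRI) responds to heme shortage, Eif2ak2 (PKR) to double-stranded RNA, Eif2ak3 (PERK) to unfolded protein and Eif2ak4 (GCN2) to amino acid shortage. The 5 tested probes had differences from -0.43 to 0.24 and none separated the genotypes. Eif2ak3 read 9.52, 9.31, 8.16 and 8.32 in wildtype and 9.59, 9.68, 8.33 and 8.64 in heterozygous mice, so that its arrays differed by over 1 log2 unit within each genotype and the genotypes by 0.24 ± 0.48. Eif2ak4 was below 0 at all 3 of its probes, from -0.43 to -0.14, though the last was 0.02 with the spatial trend removed. Eif2ak2, the only member on chromosome 17, which also holds Brd2, was well above background in 4 of 8 samples and had 0.08 ± 0.27.

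eIF4F joins the cap-binding protein eIF4E, the scaffold eIF4G and the helicase eIF4A. The array holds 22 probes for this group and its helpers, of which 10 were tested. The lowest unadjusted p was that of Eif4e2 (4EHP), a relative of eIF4E that binds caps without eIF4G and can silence messages. Its tested probe A_55_P2006554 lies at chr1:89122748-89122807 on the plus strand and is printed because 3 Eif4e2 probes exist and only this one was bright enough to be tested.
Eif4e2: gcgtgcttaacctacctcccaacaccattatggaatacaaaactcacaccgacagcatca

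The Eif4e2 probe read 8.87, 8.95, 8.51 and 8.65 in wildtype and 9.46, 9.61, 9.52 and 9.77 in heterozygous mice. All heterozygous mice were above all wildtype mice, by a margin larger than the gap between arrays of 1 genotype. The difference was 0.84 ± 0.23, or 1.79-fold (95% interval 1.25 to 2.58), with an adjusted p of 0.449. With the scanner's processed signals it turned to -0.56, close to that setting's median of -0.53 over all probes. With mice of an array fitted as independent it passed, at an adjusted p of 0.032, within a range of 0.032 to 0.936 over the alternatives. The other Eif4e2 probes, in the gene's later part, were well above background in 0 and 3 of 8 samples.

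No tested probe of the canonical eIF4F factors separated the genotypes. Eif4e had 0.17 ± 0.27 at its tested probe and, with a flagged spot kept, -0.60 ± 0.34 at another. The helicases Eif4a1 and Eif4a2 had -0.04 ± 0.29 and 0.10 ± 0.29. The scaffold Eif4g1 read 13.43, 13.35, 13.24 and 13.41 in wildtype and 12.86, 13.03, 13.24 and 13.10 in heterozygous mice, a difference of -0.30 ± 0.26. Eif4b, which helps eIF4A unwind messages, had 3 probes at 0.42, -0.18 and -0.24. Eif4h, a related helper, had flagged spots in 7 of 8 samples. Kept in, they read 14.70, 14.54, 14.48 and 14.32 in wildtype and 15.01, 15.10, 14.77 and 14.89 in heterozygous mice, a difference of 0.43 ± 0.27. Both probes of Eif4e1b, known from germ cells, were well above background in none of the 8 samples.

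Eif4a3 carries an initiation factor's name but serves the exon junction complex, which marks spliced messages. It read 9.58, 9.87, 8.33 and 8.40 in wildtype and 9.82, 10.10, 9.98 and 10.15 in heterozygous mice. The groups overlapped, and the wildtype arrays differed by 1.36. The difference was 0.97 ± 0.40 (adjusted p = 0.603). It was 0.29 without the array of wildtype replicates 3 and 4, 1.65 without that of wildtype replicates 1 and 2, and -0.57 with processed signals.

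Among the proteins that capture eIF4E, Eif4ebp2, the main form in brain, read 11.50, 11.53, 11.97 and 11.80 in wildtype and 11.10, 11.02, 11.29 and 11.40 in heterozygous mice. All heterozygous mice were below all wildtype mice, the nearest by 0.10. The difference was -0.50 ± 0.26 (adjusted p = 0.704) and -0.16 with the spatial trend removed. Eif4ebp1 had 0.00 ± 0.26, Eif4ebp3 0.35 ± 0.35 and the shuttling protein Eif4enif1 0.12 ± 0.26. The last 2 were below 0 with processed signals, at -0.06 and -0.27.

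eIF5 triggers GTP hydrolysis on eIF2 when the start codon is found. Its probe A_52_P533304 lies at chr12:112778375-112778434 on the plus strand, with A_55_P2043466 at chr12:112784725-112784784, and the first is printed because it held the largest gap between arrays of any initiation factor probe.
Eif5: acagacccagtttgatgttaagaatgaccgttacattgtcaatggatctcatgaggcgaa

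The printed Eif5 probe read 13.52, 13.47, 13.80 and 13.82 in wildtype and 11.20, 11.44, 13.72 and 14.04 in heterozygous mice. Heterozygous replicates 1 and 2, of 1 array, were low, and replicates 3 and 4 were at the wildtype level. The difference was -1.05 ± 0.66 (adjusted p = 0.779), and it was 0.23 without the array of heterozygous replicates 1 and 2. The second Eif5 probe, read on the same arrays, was also lowest in those mice, but by less, with 11.94 and 12.06 against 12.47 and 12.60 in the other heterozygous mice and 12.19 to 12.66 in wildtype. Its difference was -0.17 ± 0.28, which was 0.12 with the spatial trend removed. Eif5a, which relieves stalled ribosomes, and its copy Eif5a2 had -0.33 ± 0.24 and 0.46 ± 0.34 with flagged spots kept. Eif5b was well above background in 2 of 8 samples and was not tested.

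The array of heterozygous replicates 1 and 2 also stood apart for Eif6, which keeps the ribosomal subunits from joining too early. Eif6 read 12.23, 12.39, 12.36 and 12.73 in wildtype and 10.94, 11.05, 12.09 and 12.26 in heterozygous mice at A_52_P85864. This was the only probe of the set lower at an unadjusted p under 0.05, with a difference of -0.84 ± 0.37 (adjusted p = 0.619) and overlapping groups. Leaving out the array of heterozygous replicates 1 and 2 gave -0.26, and leaving out that of replicates 3 and 4 gave -1.43. The other tested Eif6 probe had -0.23 ± 0.27 and read 11.77 and 11.73 in the same 2 mice, against 11.61 to 12.30 in wildtype.

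The array's names Eif2c1 to Eif2c4 are older symbols of the Argonaute genes Ago1 to Ago4, which bind small RNAs and are not initiation factors. Eif2c1 (Ago1) showed the same array pattern, with 9.49, 9.74, 9.78 and 9.84 in wildtype and 8.01, 8.10, 9.86 and 10.03 in heterozygous mice. Its difference was -0.71 ± 0.50 (adjusted p = 0.802) and was 0.23 without the array of heterozygous replicates 1 and 2. Eif2c2 (Ago2) and Eif2c4 (Ago4) had differences from -0.25 to 0.34. Without the Argonaute probes the set's median was -0.04, as with them.

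**Figure D4:**
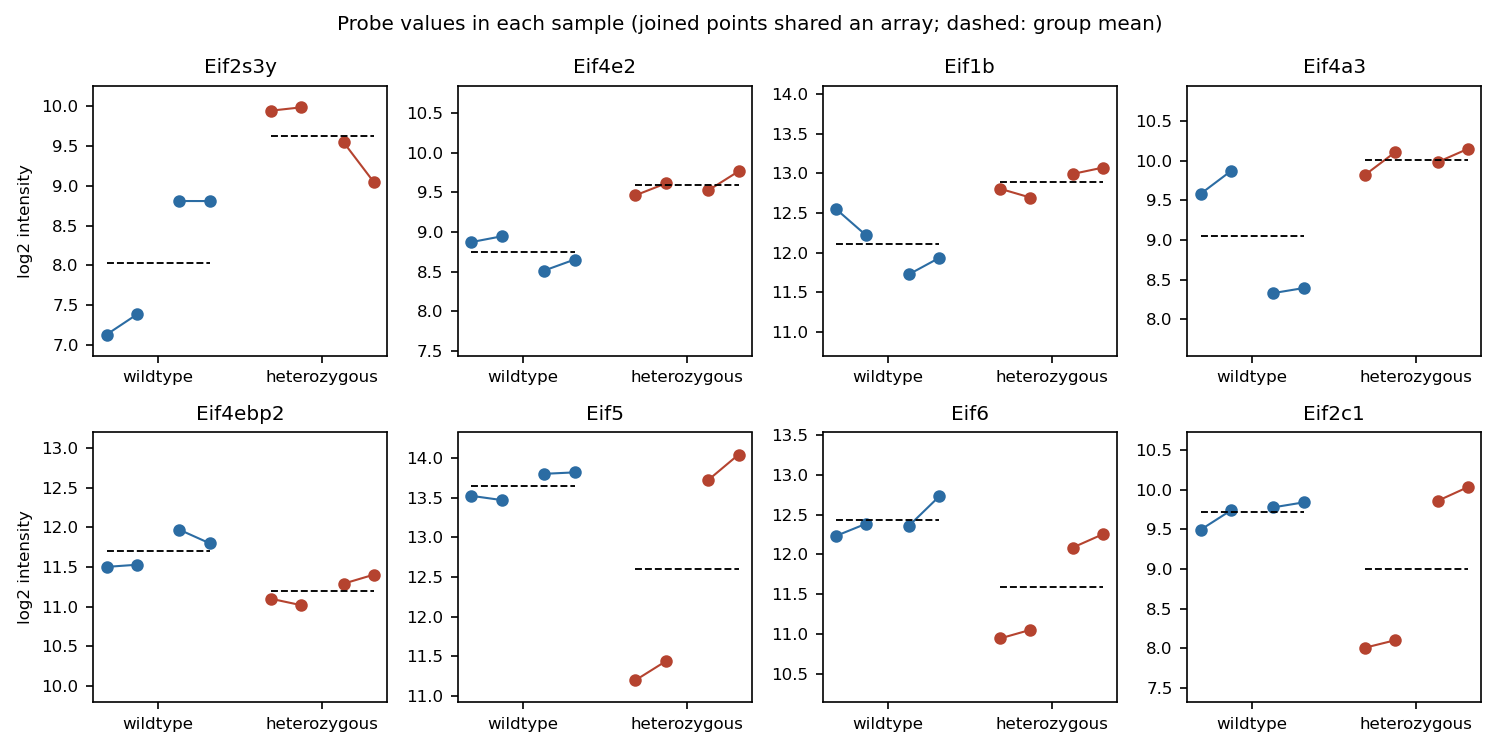
Log2 intensity of 8 probes in each mouse; joined points shared an array, dashed lines are group means, and every panel spans the same range on its own axis. Genotypes do not overlap for Eif2s3y, Eif4e2, Eif1b and Eif4ebp2, the wildtype arrays lie apart for Eif2s3y and Eif4a3, and the array of heterozygous replicates 1 and 2 is low for Eif5, Eif6 and Eif2c1; Eif4e2 and Eif4a3 change side with processed signals.

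Arrays of 1 genotype often lay further apart than the genotypes did. Over the 60 probes, the median gap between array means was 0.31 within wildtype and 0.30 within heterozygous mice, and the median difference between genotypes, without regard to sign, was 0.25. The genotype difference was larger than both array gaps at 14 of 60 probes, 23.3%, against 22.6% of all probes. A gap of at least 1 log2 unit between arrays of 1 genotype occurred at 10 of 60 probes, 16.7%, against 15.9% of all probes. Probes of 1 gene also differed. Of 13 genes with 2 or more tested probes, 9 had differences of 1 sign and 4 (Eif1ad, Eif3h, Eif3j and Eif4b) did not, and the median spread between a gene's probes was 0.45.

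One member measured how far spots of the same probe differ. The Eif2d probe A_51_P109421 (chr1:133064801-133067556, plus strand) was printed 10 times on each array, and the second Eif2d probe, A_55_P2089840 (chr1:133064757-133064816), shares 16 bases with it, shown in capitals.
Eif2d A_51_P109421: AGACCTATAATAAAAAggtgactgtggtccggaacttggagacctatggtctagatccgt
Eif2d A_55_P2089840: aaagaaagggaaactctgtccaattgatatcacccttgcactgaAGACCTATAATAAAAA

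The 10 spots of the first ranged from 7.37 to 9.29 in wildtype replicate 3 and from 8.56 to 9.37 in wildtype replicate 1. Their SD lay between 0.27 and 0.56 log2 units over the 8 samples. The 2 channels of an array varied together from spot to spot, with a correlation over 10 spots of 0.933 to 0.993, which describes spots of 1 array and is no sample of mice. The 271 probes printed 10 times had median spot SDs of 0.298 to 0.480 a sample. Eif3f has 1 spot an array, and its spread between spots was not measured. The mean of the 10 spots gave Eif2d a difference of -0.07 ± 0.25, and the overlapping second probe, with 1 spot, -0.19 ± 0.26.

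**Figure D5:**
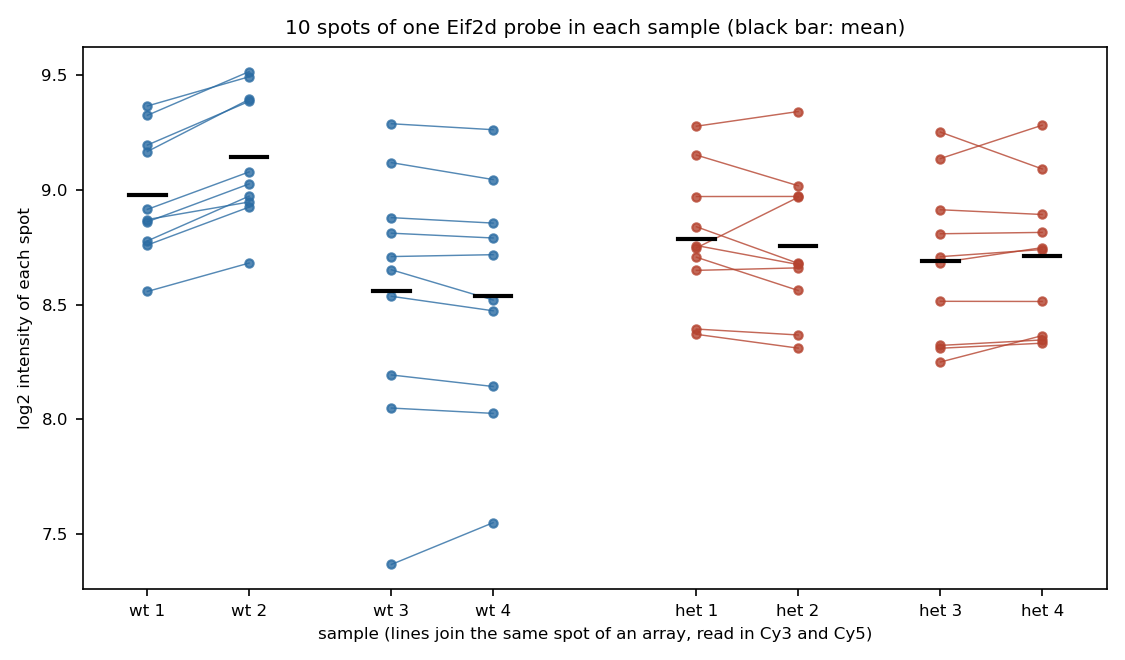
Log2 intensity of the 10 spots of an Eif2d probe in each mouse; lines join the same spot read in Cy3 and Cy5, blue is wildtype, red is heterozygous and black bars are means. Spots of 1 array span up to 1.92 log2 units (wildtype replicate 3) and keep nearly the same order in both mice of the array.

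Of the 19 probes left out for flagged spots, 6 separated the genotypes when those spots were kept, 5 higher and 1 lower in heterozygous mice. Of all 3889 probes left out this way, 24.5% did, 15.2% higher and 9.28% lower. Of the 19, 4 had an unadjusted p under 0.05, as had 15.4% of the 3889. None passed, the lowest adjusted p being 0.411. Flagged probes were brighter than tested ones at the median, with a level of 11.98 against 9.69 among members and 11.9 against 8.77 among all probes. Bright members were also among those tested, such as Eif3k at A_55_P2016387, with 14.04 to 14.67 over the 8 samples.

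Genes that act beside the initiation factors were read by their brightest tested probe, and none passed the test. Of the elongation factor list, 4 of 8 genes were tested. Eef1e1, a scaffold protein of the tRNA synthetase complex, read 8.68, 8.36, 9.23 and 8.92 in wildtype and 9.93, 9.63, 9.86 and 9.93 in heterozygous mice, a difference of 1.04 ± 0.30 (adjusted p = 0.463) that was 0.36 with processed signals. It was the only one of the 4 with an unadjusted p under 0.05, which 8.05% of all probes had. Of 12 tested genes of mTOR and MNK signalling, 2 were higher (3.83% of all probes were) and none lower (4.22%) at that level. These were the S6 kinases Rps6kb1 (8.16, 8.02, 8.02 and 8.24 against 8.71, 8.72, 8.75 and 8.71) and Rps6kb2 (7.76, 8.01, 8.29 and 8.74 against 9.15, 9.68, 9.30 and 8.90). Their differences were 0.61 ± 0.25 and 1.06 ± 0.46 (adjusted p = 0.603 and 0.619), and -0.16 and 0.50 with processed signals. The median of the list was 0.05, or -0.48 with processed signals. Mtor, the kinase itself, had 0.76 ± 0.35, with wildtype replicates 3 and 4 at 8.34 and 8.33 and the other mice at 9.43 to 9.78, and it was -0.68 with processed signals. Pdcd4, which inhibits eIF4A, had -0.54 ± 0.33 (adjusted p = 0.761), with groups that did not overlap, as at 17.0% of all probes. Its difference was -0.18 with the spatial trend removed.

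Of 10 tested genes of the integrated stress response, which phosphorylated eIF2 sets off, none had an unadjusted p under 0.05 and the median was -0.04. Atf4, its main transcription factor, had 0.42 ± 0.44 with overlapping groups, which was -0.11 with processed signals, and Ddit3, a target of it, had -0.07 ± 0.24, which was 0.18 with the spatial trend removed. The median was -0.34 over 6 tested genes of termination and recycling, 4 of them lower. It was -0.17 with the spatial trend removed and -0.59 with processed signals. Over 4 poly(A)-binding proteins and partners, all 4 lower, the median was -0.18, and in those settings -0.21 and -0.69. Paip1 was 0.16 with the spatial trend removed. Neither list had a gene at an unadjusted p under 0.05. The median over all probes was -0.02, or -0.01 with the spatial trend removed and -0.53 with processed signals.

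Cell type markers also differed between samples. The level of each list was taken as log2 of the summed intensity of its tested markers. That of the striatal neuron list was 16.7 to 17.7 in wildtype and 17.8 to 18.3 in heterozygous mice, and that of the cortical neuron list 11.4 to 13.6 and 11.1 to 11.8. These sums follow their brightest markers, and single markers went both ways. Of 7 tested striatal markers 5 were above 0 and 2 were below 0, Adora2a at -0.33 and Foxp1 at -0.27. Among those above 0, Penk (0.86) and Tac1 (0.84) did not overlap between genotypes, as was so at 17.0% of all probes. Of 7 tested cortical markers 6 were below 0. Choroid plexus markers ranged from 10.6 to 17.4 and from 12.7 to 17.3. Besides the striatal list, the microglia list (13.4 to 13.5 against 13.6 to 13.8) and the atrial list (10.04 to 12.09 against 9.48 to 9.99) did not overlap between genotypes as sums. Of 7 tested microglia markers 4 were above 0 and 3 below. The atrial list had 3 tested markers, all below 0 and each overlapping between genotypes. Its brightest, Myl4, read 11.95 in wildtype replicate 1, 9.34 to 9.47 in the other wildtype mice and 7.88 to 9.43 in heterozygous mice. The sums of astrocytes, oligodendrocytes, endothelium and blood overlapped. In bulk tissue, more cells of a type and more RNA per cell cannot be told apart, and the part of these shifts in the values above was not tested.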

How the data were processed

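RNA of 8 mice was read on 4 two-colour Agilent mouse arrays. Per the file headers, Agilent Feature Extraction 11.0.1.1 wrote the deposited raw spot and background intensity of each channel and a processed intensity, background-subtracted, detrended and dye-normalized. The authors' deposited value table holds a linear ratio, median signal minus median background over the column's median. This was found by setting it against the scanner values (100% equal within a relative 1e-06).

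Each sample's own channel was background-corrected (normexp, offset 50), normalized by loess within and Aquantile between arrays, and put on the log2 scale, from the deposited intensities, with limma 3.58.1 in R 4.3.3. Outlier-flagged spots were left out and spots of a probe averaged. Probes well above background in at least 4 of 8 samples with a value in all 8 were fitted on genotype and dye, with the array as a random block (correlation 0.810) and Benjamini-Hochberg adjustment over 18399 probes. The script was tested on simulated data. Probe names are those of the array design, and 84 of 92 matched RefSeq (GRCm38.p6) through accessions. Coordinates are mm9, per the file headers.

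The members, gene lists and the Eif3f comparison were chosen with earlier results of these data known. Named with values were each Eif3 subunit's brightest tested probe and, in other roles, up to 3 tested probes by unadjusted p; further members were named after their values were seen. The replicates are separate mice, and 4 arrays limit the precision. Same-numbered samples deviated together at 0.040 to 0.255, not all above 0.1, so the numbers were not used as pairs. Normalization, background, filter, outlier, block, dye and leave-out alternatives were tried. In the alternative with the scanner's processed signals, these were put on the log2 scale without further scaling between arrays.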

Additional observations from a re-analysis of the deposited data

Results flagged for a closer look

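In 37 named probes, each of the 2 genotypes was searched for a mouse far from the other 3, which chance gives in about 5% of groups, and 2 of 74 groups had one. For Eif2s3x at A_55_P2093764, heterozygous replicate 3 read 8.96 while the others read 9.18 to 9.20. For Eif3k at A_55_P2016387, wildtype replicate 2 read 14.67 while the others read 14.50 to 14.53.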

How the results depend on the processing

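No initiation factor probe passed under any alternative except where mice of an array were fitted as independent. There 2 members passed, Eif4e2 and Eif3f (1.71, adjusted p = 0.020), among 539 probes. Over all probes, 0 passed in the main setting and 1 with the deposited value table. Dropping 1 array gave 23 (wildtype replicates 1 and 2), 14 (wildtype replicates 3 and 4), 5 (heterozygous replicates 3 and 4) and otherwise 0. Dropping 1 mouse gave 0 to 1, the 1 being without wildtype replicate 4. Probes with an unadjusted p under 0.05, 1481 in the main setting, were 3876 with mice independent, 2860 with no filter on dim probes, 877 with the spatial trend removed and 3113 with the wildtype replicate 1 and 2 array dropped. The members' median, -0.039, was -0.47 with processed signals, 0.032 with the spatial trend removed, 0.053 in Cy5 samples, 0.031 with 1 probe a gene, and, with 1 array dropped, 0.032 (wildtype replicates 1 and 2), -0.096 (wildtype replicates 3 and 4), -0.039 (heterozygous replicates 1 and 2) and 0.054 (heterozygous replicates 3 and 4). It ran from -0.046 to 0.039 when 1 mouse was left out, the ends being without wildtype replicates 3 and 1. The distance of Eif3f from the other eIF3 probes, 1.77, was 1.07 with processed signals. With processed signals, which were not scaled between arrays here, the median over all probes was -0.53 as well. The cause of these shifts was not tested. With the replicate number as a block in place of dye, the numbers being no proven pairs, 0 probes passed, 2097 had an unadjusted p under 0.05 and the members' median was -0.04. The fit of flagged probes on their remaining samples and that without the Argonaute probes were chosen after seeing the data. Signal over background was 3.72 to 10.5 a sample, and 4 arrays, 2 a genotype, limit what can be told from the spread between them.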
